A study of Mus musculus with 2 samples.

Results

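The 31 genes described here encode enzymes and regulators of cholesterol and fatty acid synthesis in mouse, and they were named in a list by pathway role and matched by Entrez identifier. All 31 were among the 17216 genes listed in either of 2 RNA-seq libraries, and 30 of them passed a mean of 1 FPKM (a read density per transcript length, made comparable between libraries of unequal depth) over the 2 libraries, as did 11985 genes in all. Scd1, with a mean below that level, is given separately. The list holds 4 regulators of the SREBP transcription factors, 7 enzymes of the mevalonate branch, 11 enzymes from squalene to cholesterol, 1 sterol transport gene and 8 fatty acid genes. It does not hold every gene of these pathways.

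The cells were sorted as long-term blood stem cells (LT-HSCs), the bone marrow cells that maintain blood formation over life, by a gate without lineage markers and CD48 and with Sca-1, c-Kit and CD150. One library came from wild type C57BL/6 littermates and 1 from C57BL/6 mice whose label gives the genotype Ccp3-/- (CCP3 is a cytosolic carboxypeptidase). Sequencing used a BGISEQ-500 instrument. The labels give no age, sex, deleted exon or number of pooled animals. With 1 library per genotype there was no replicate and no test between genotypes, so each value below compares these 2 libraries.

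Depths reconstructed from the spacing of low FPKM values were about 15.3 and 14.2 M reads. The gene that encodes CCP3, Agbl3, stood at 1.11 FPKM in wild type cells and 0.66 FPKM in the other sample, from about 23 and 15 reads. Its ratio of 0.595 had a 95% counting interval of 0.288 to 1.19, which leaves the genotype label unchecked by the targeted gene, and the second library is called the knockout-labelled library. Cd48, whose protein the gate excludes, was listed at 136 and 114 FPKM. Of the genes whose proteins the gate selects, Ly6a (Sca-1) was lower at 49.1 and 28.4 FPKM (ratio 0.578, 0.508 to 0.656). Kit stood at 59.7 and 56.5 FPKM, and Slamf1 (CD150) at 2.14 and 3.40 FPKM. Neutrophil lineage markers had a higher sum in the knockout-labelled library, at 8588 and 12063 FPKM over 12 genes. Of these, 7 were at least 1.5-fold higher (beside 6.11% of all genes measured) and 0 lower (beside 6.13%). Camp went the other way at 207 and 152 FPKM, a ratio of 0.73 (0.68 to 0.79), and Ngp stood at 581 and 565 FPKM. Erythroid markers summed to 1499 and 509 FPKM over 6 genes, with 3 at least 1.5-fold lower (beside 6.13% of all genes measured) and 0 higher (beside 6.11%). Car1 (109 and 124 FPKM, ratio 1.13, 1.07 to 1.21) and Klf1 (5.76 and 6.77 FPKM) went the other way. The largest falls were in Hba-a1 (764 and 155 FPKM) and Hbb-bs (457 and 107 FPKM). Markers of multipotent progenitors (3 genes, 743 and 408 FPKM), dendritic cells (7 genes, 477 and 264 FPKM), B cells (8 genes, 115 and 53.5 FPKM) and T cells (5 genes, 26.6 and 14.8 FPKM) were also lower. The summed level of the stromal and adipocyte markers was lower too, at 22.81 and 10.01 FPKM over the 5 of 6 that were listed. Cxcl12 (11.35 and 4.57 FPKM) and Fabp4 (9.54 and 4.27 FPKM) made up most of both sums. Adipoq stood at 0.82 and 0 FPKM, from about 15 and 0 reads. Lepr and Col1a1 went the other way, slightly higher from low levels and within counting error. The 8 stem cell markers summed to 155 and 103 FPKM. All 8 genes of the stem cell list were listed in both libraries, as were all 12 neutrophil genes. The part of these differences in the values below was not tested. In bulk RNA, fewer cells of a type and less RNA per cell cannot be told apart.

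Cells make cholesterol from acetyl-CoA through mevalonate, isoprenoid diphosphates, squalene and lanosterol, and they make fatty acids from the same precursor through malonyl-CoA. SREBP proteins are held in the endoplasmic reticulum by SCAP and INSIG when sterols are plentiful. When sterols fall they move to the Golgi, are cut by 2 proteases, and enter the nucleus, where they switch on these enzymes together with the factors NF-Y and Sp1. SREBP-2 is best known for the cholesterol genes and SREBP-1 for the fatty acid genes.

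Paired values are given with the wild type library first. The 30 measured genes were mostly a little higher in the knockout-labelled library, and none differed by 1.5-fold. The difference of a gene is its log2(FPKM + 1) in the knockout-labelled minus the wild type library, a scale that understates the change of low genes. Differences ran from -0.20 for Ebp to 0.57 for Acaca, with a median of 0.15 beside 0.01 over all genes measured. They lay above 0 for 22 of the 30 genes, against 50.8% of all genes measured. Of the 30, 0 were at least 1.5-fold higher, where 6.11% of all genes were, and 0 were at least 1.5-fold lower, where 6.13% were. At 2-fold, 0 of the 30 were higher and 0 lower, beside 1.21% and 1.55% of all genes. Without the pseudocount, 2 genes, Acaca and Hsd17b7, had an FPKM ratio of at least 1.5, as did 8.67% of all genes. The median size of the difference regardless of sign was 0.18 among the 30 genes and 0.23 among all genes. The summed level of the 31 genes was 450.3 and 527 FPKM, a ratio of 1.17.

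Counting error was set against each ratio with an exact 95% interval from the estimated reads, which covers counting error only and not variation between animals or preparations. The interval lay above 1 for 15 of the 30 genes (50.0%), beside 31.1% of all genes measured. It lay below 1 for 1 gene, Ebp, beside 27.0% of all genes. At a mean of 5 FPKM or more, where intervals are narrower, the shares of all genes were 34.6% above and 29.6% below. Hmgcs1, Idi1, Fdps, Sqle, Cyp51, Hsd17b7 and Sc5d of the sterol branches had intervals above 1, as did Stard4, the regulators Srebf2 and Scap, and Acly, Acaca, Fasn, Scd2 and Fads2 of the fatty acid group. The plot of levels shows that these shifts were small beside the spread of levels between genes, and the plot of ratios shows the intervals.

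**Figure D1:**
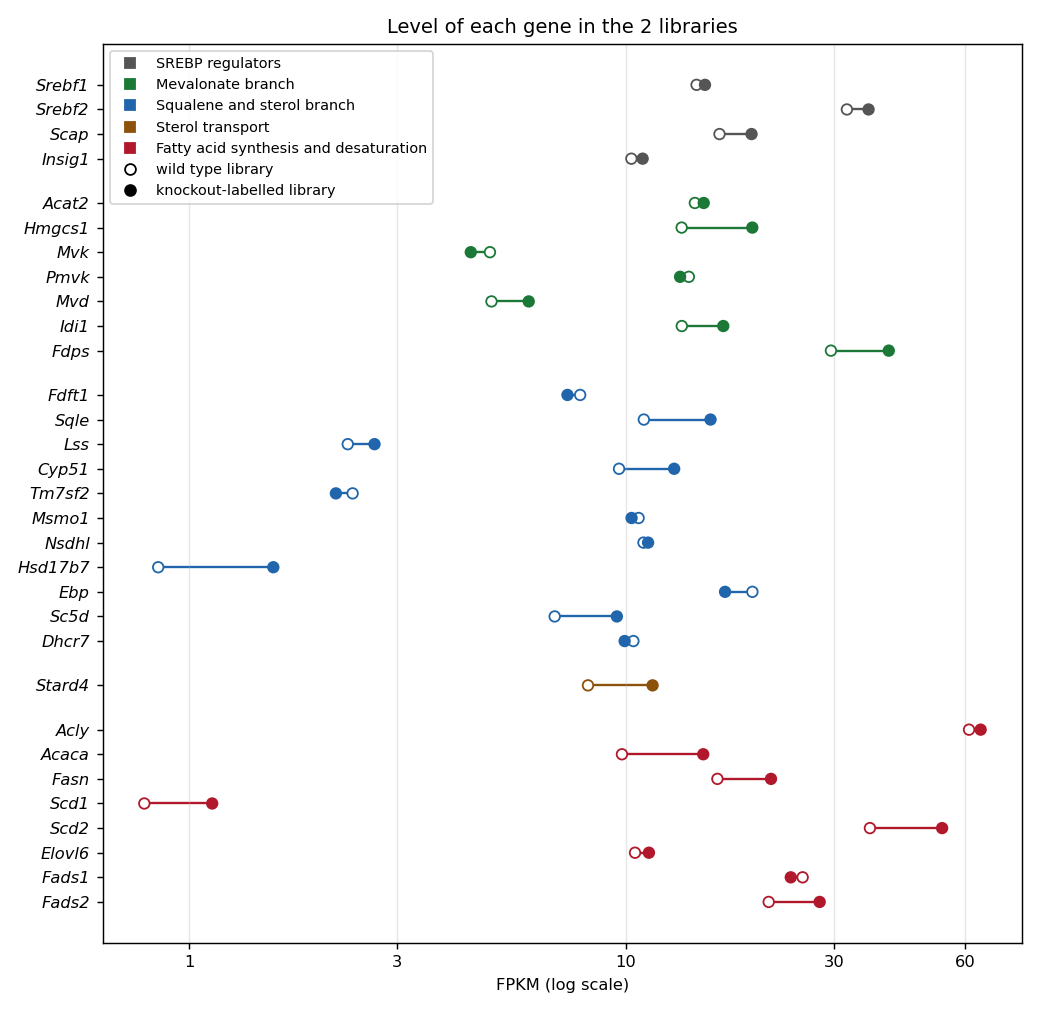
Level of each of the 31 genes in FPKM on a log axis, grouped and coloured by role. Open circles are the wild type library and filled circles the knockout-labelled library, 1 library each, and 23 of 31 genes have the filled circle to the right.

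**Figure D2:**
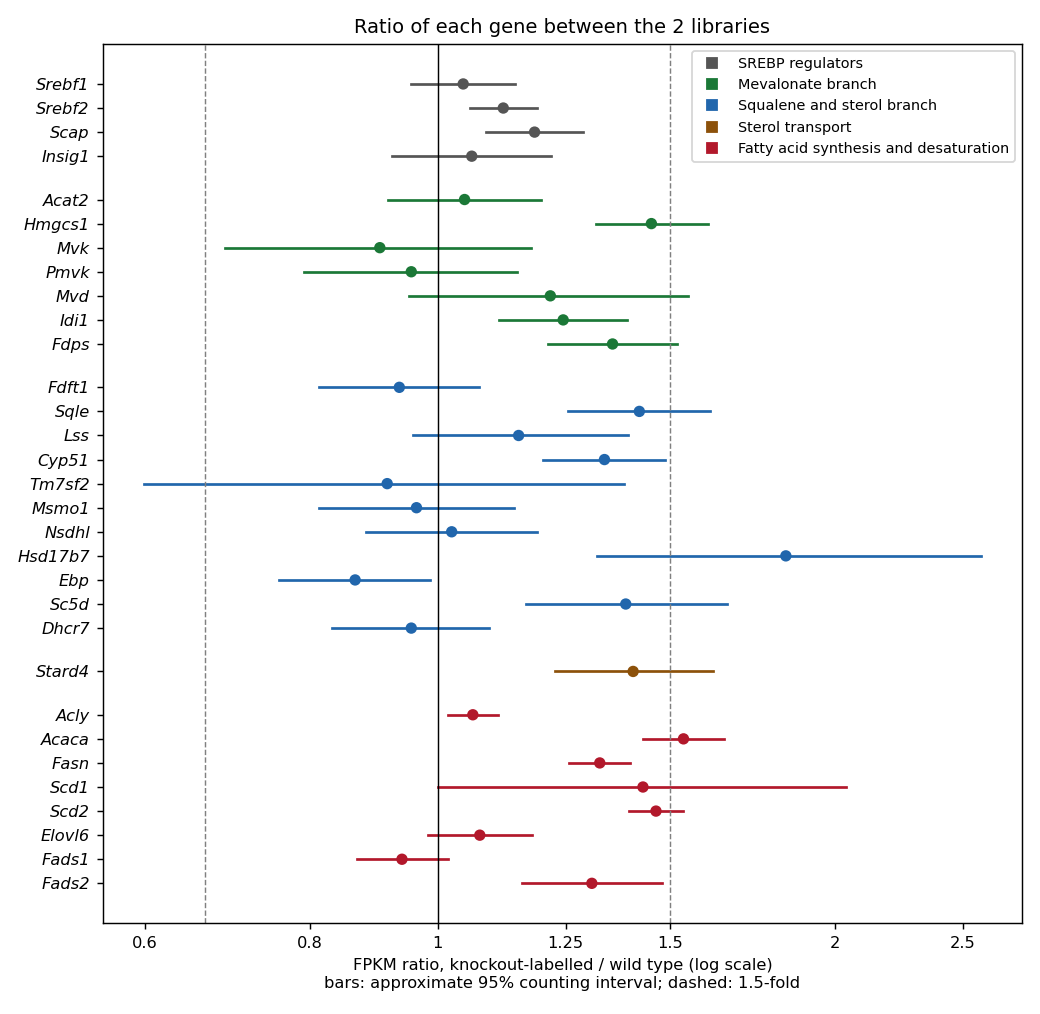
FPKM ratio of the knockout-labelled to the wild type library for each gene on a log axis, with the approximate 95% counting interval as a bar. The solid line marks a ratio of 1 and the dashed lines 1.5-fold in either direction. Acaca and Hsd17b7 lie beyond the upper dashed line, and Ebp has an interval below 1.

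Most promoters of these genes held the letters CCAAT, the box bound by NF-Y, and few held the exact letters searched for a sterol response element. RefSeq windows of the build GRCm38.p6, from 250 bases before to 50 after a start site, were found for 24 of the 31 genes. Both strands were searched, and a gene with several windows counted once if any held a match. CCAAT was found in 19 of the 24 (79.2%), beside 43.7% of 9512 measured genes with a window and 37.4% of all 32851 windows. GGGCGG, the Sp1 box, was found in 20 of the 24 (83.3%), beside 67.5% of measured genes and 35.7% of all windows. The E-box CACGTG was found in 5 (20.8%), beside 12.0% and 7.15%. The sterol response element core CACNCCAC was found in Insig1, Acat2 and Hmgcs1 (12.5%, beside 7.50% and 6.24%). The longer form TCACNCCAC, which contains that core, was found in Hmgcs1 alone of the 24 (4.2%, beside 1.38% and 1.24%). A match in these windows is a run of letters, and binding was not measured. Other forms of the sterol response element were not searched, so a window without a match may still hold one.

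The windows of 5 genes are shown because they hold these boxes in genes that were higher (Hmgcs1, Cyp51, Fasn) and in genes that were not (Mvk, Ebp). Each runs 5′ to 3′ on the gene's strand. CCAAT, its reverse complement ATTGG, and the sterol response element core are in capitals.
Hmgcs1, chr13:119690101-119690400, + strand: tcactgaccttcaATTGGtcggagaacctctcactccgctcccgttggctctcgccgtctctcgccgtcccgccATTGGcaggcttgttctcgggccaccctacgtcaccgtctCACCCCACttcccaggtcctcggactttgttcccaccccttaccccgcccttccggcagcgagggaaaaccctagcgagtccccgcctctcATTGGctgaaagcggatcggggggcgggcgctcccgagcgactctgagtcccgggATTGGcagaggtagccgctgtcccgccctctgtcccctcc
Cyp51, chr5:4104648-4104947, - strand: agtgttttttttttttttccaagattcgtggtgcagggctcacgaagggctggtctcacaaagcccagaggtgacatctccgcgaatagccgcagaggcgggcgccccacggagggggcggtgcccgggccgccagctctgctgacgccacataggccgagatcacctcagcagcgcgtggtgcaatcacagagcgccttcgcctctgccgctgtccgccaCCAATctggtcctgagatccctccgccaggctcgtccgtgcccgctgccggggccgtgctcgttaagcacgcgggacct
Fasn, chr11:120824498-120824797, - strand: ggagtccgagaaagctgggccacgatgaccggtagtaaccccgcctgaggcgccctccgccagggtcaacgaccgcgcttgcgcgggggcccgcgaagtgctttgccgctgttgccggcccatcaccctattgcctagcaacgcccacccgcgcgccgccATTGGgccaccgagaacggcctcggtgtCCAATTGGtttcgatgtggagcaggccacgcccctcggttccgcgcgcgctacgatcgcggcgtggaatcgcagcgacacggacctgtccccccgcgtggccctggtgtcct
Mvk, chr5:114444019-114444318, + strand: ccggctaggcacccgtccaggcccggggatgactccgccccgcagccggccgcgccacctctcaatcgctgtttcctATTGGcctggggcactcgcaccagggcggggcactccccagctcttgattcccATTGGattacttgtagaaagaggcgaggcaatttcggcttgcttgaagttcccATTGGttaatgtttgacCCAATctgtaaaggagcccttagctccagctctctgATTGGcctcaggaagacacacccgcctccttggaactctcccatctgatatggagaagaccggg
Ebp, chrX:8193463-8193762, - strand: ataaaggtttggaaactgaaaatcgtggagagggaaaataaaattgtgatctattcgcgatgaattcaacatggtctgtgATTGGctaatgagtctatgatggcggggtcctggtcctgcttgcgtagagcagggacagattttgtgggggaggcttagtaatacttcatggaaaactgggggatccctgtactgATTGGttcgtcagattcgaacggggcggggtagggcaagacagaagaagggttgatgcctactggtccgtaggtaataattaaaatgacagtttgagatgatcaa

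The Hmgcs1 window held the sterol element core at -136 from the start site and 4 CCAAT boxes, the nearest upstream one at -45. Mvk, which was lower in deposited FPKM, held 5 CCAAT boxes, and Ebp, with the lowest ratio of the list, held 2. Fasn held 3, of which a pair overlap head to head at -62 and -59. Cyp51 held 1 at -29. Measured genes of the list with CCAAT had a median difference of 0.09 (19 genes, from -0.20 to 0.51). The 5 without it (Scap, Acat2, Acaca, Elovl6 and Fads2) had 0.23 (from 0.06 to 0.57). Relative to genes of like transcript length, these 5 stood in that order at 0.09, 0.11, 0.24, -0.09 and 0.54. Scap, Acat2 and Acaca share transcript sequence with other genes, as do Hmgcs1 and Idi1 among the 19. The part of length and shared sequence in these medians was not tested. Over all measured genes with a window the medians were -0.01 with CCAAT and 0.01 without.

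All 4 SREBP regulators were slightly higher in the knockout-labelled library (median difference 0.12). Relative to genes of like transcript length the median was 0.03, with 3 genes above 0 and 1 below. On that scale Srebf2 stood at 0.003 and Srebf1 at -0.01. Srebf2, which encodes SREBP-2, was listed at 32.1 and 36.0 FPKM, a ratio of 1.12 (95% counting interval 1.06 to 1.19). Srebf1, the gene of SREBP-1, stood at 14.5 and 15.2 FPKM, a ratio of 1.05 (0.954 to 1.15) that held 1. Srebf2 was thus 2.21 times the level of Srebf1 per length in wild type and 2.37 times in knockout-labelled cells. Scap, the sterol-sensing escort of both factors, was listed at 16.4 and 19.4 FPKM, a ratio of 1.18 (1.09 to 1.29). Insig1, the retention protein that is itself an SREBP target, stood at 10.3 and 10.9 FPKM with a ratio of 1.06 (0.923 to 1.22). Insig1 carries the sterol element core and CCAAT in its window, as Hmgcs1 does, and its ratio was lower than that of Hmgcs1, with intervals that did not overlap.

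The 7 mevalonate enzymes had a median difference of 0.24, with 3 intervals above 1 (42.9%, beside 31.1% of all genes) and 0 below. Those 3, Hmgcs1, Idi1 and Fdps, and Acat2 share sequence with other genes, and without these 4 the median was -0.06. The summed level of all 7 was 94.6 and 115 FPKM. Hmgcs1, which joins acetoacetyl-CoA and acetyl-CoA into HMG-CoA, was listed at 13.4 and 19.5 FPKM, a ratio of 1.45 (1.32 to 1.60) and the highest of the branch. Fdps, which makes farnesyl diphosphate, stood at 29.5 and 40.1 FPKM, a ratio of 1.36 (1.21 to 1.52). Idi1, which isomerises isopentenyl diphosphate, was listed at 13.5 and 16.7 FPKM, a ratio of 1.24 (1.11 to 1.39). The kinase genes Mvk (4.89 and 4.42 FPKM) and Pmvk (14.0 and 13.3 FPKM) had ratios of 0.904 (0.689 to 1.18) and 0.955 (0.792 to 1.15), with intervals that overlapped that of Idi1. Both turned higher when the libraries were scaled to equal FPKM sums (differences of 0.04 and 0.12), but stayed below the median of all genes there, 0.18. Mvd, the decarboxylase gene, stood at 4.93 and 6.00 FPKM with a ratio of 1.22 (0.952 to 1.55). Acat2, the thiolase that makes acetoacetyl-CoA, was listed at 14.4 and 15.1 FPKM, a ratio of 1.05 (0.917 to 1.20).

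The 11 genes from squalene to cholesterol were divided, with 6 above 0, 5 below and a median difference of 0.03. Intervals lay above 1 for 4 of them (36.4%, beside 31.1% of all genes). Sqle, the squalene epoxidase and a control point of the pathway, was listed at 11.0 and 15.7 FPKM, a ratio of 1.42 (1.26 to 1.61). Cyp51, the lanosterol demethylase, stood at 9.66 and 12.9 FPKM, a ratio of 1.34 (1.20 to 1.49). Sc5d, a late desaturase, was listed at 6.88 and 9.55 FPKM, a ratio of 1.39 (1.17 to 1.66). Hsd17b7, which reduces the 3-keto sterol during demethylation, had the highest ratio of the list at 1.84 (1.32 to 2.58), but from the low levels of 0.85 and 1.56 FPKM and about 59 and 101 reads.

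The remaining sterol enzymes differed little or were lower. Ebp, the sterol isomerase, was the only gene of the 31 with an interval below 1, at 19.5 and 16.9 FPKM (ratio 0.866, 0.758 to 0.987). It was also the only gene that stayed below 0 under equal FPKM sums. Fdft1, the squalene synthase, stood at 7.87 and 7.36 FPKM (0.935, 0.813 to 1.07). It sits between Fdps and Sqle in the pathway, and both of those were higher. Msmo1 (10.7 and 10.3 FPKM), Dhcr7 (10.4 and 9.95 FPKM) and Tm7sf2 (2.37 and 2.17 FPKM) encode a methyl oxidase and 2 reductases. Their ratios were 0.964, 0.955 and 0.916, all with intervals that held 1. These 3 and Fdft1 were above 0 under equal FPKM sums, but below the median of all genes there, 0.18. Nsdhl, the decarboxylating dehydrogenase, was listed at 11.0 and 11.3 FPKM, and Lss, which closes the sterol rings, at 2.31 and 2.66 FPKM, with ratios of 1.02 and 1.15 and intervals that held 1. Stard4, a cytosolic sterol carrier, was listed at 8.20 and 11.5 FPKM, a ratio of 1.41 (1.23 to 1.62).

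Among the fatty acid genes, 7 passed the mean of 1 FPKM, with a median difference of 0.37, 5 intervals above 1 (71.4%, beside 31.1% of all genes) and 0 below. Relative to genes of like transcript length the median was 0.06, with 4 genes above 0 and 3 below. Acly, which supplies cytosolic acetyl-CoA, was the most abundant gene of the list per length at 61.2 and 65.1 FPKM, a ratio of 1.06 (1.02 to 1.11). Acaca, the acetyl-CoA carboxylase that makes malonyl-CoA, stood at 9.81 and 15.1 FPKM, a ratio of 1.54 (1.43 to 1.65). Fasn, the fatty acid synthase, was listed at 16.2 and 21.5 FPKM, a ratio of 1.33 (1.26 to 1.40). The counting interval of Acly, the first step, did not overlap those of Acaca and Fasn. Relative to genes of like length, the differences were -0.02 for Acly, 0.06 for Fasn and 0.24 for Acaca.

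The stearoyl-CoA desaturases differed more in level than in ratio. Scd2 was listed at 36.3 and 53.1 FPKM, a ratio of 1.46 (1.40 to 1.53). Scd1, the main form in liver and fat, stood at 0.79 and 1.13 FPKM from about 58 and 77 reads. Its ratio of 1.43 had an interval of 1.0002 to 2.04. Scd2 was 45.9 times the level of Scd1 per length in wild type and 47.0 times in knockout-labelled cells. Fads2, the first desaturase of polyunsaturated fatty acid synthesis, was listed at 21.3 and 27.8 FPKM, a ratio of 1.31 (1.16 to 1.48). Its partner Fads1 stood at 25.4 and 23.9 FPKM, a ratio of 0.939 (0.868 to 1.02), so that the Fads1 to Fads2 ratio was 1.20 in wild type and 0.859 in knockout-labelled cells. Under equal FPKM sums Fads1 was above 0, at 0.10, but below the median of all genes there, 0.18. Elovl6, an elongase of saturated chains, was listed at 10.5 and 11.3 FPKM, a ratio of 1.08 (0.983 to 1.18).

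Transcript length moved with the difference, across all genes and within the list. The Spearman correlation across genes was 0.43 over 11985 genes and 0.42 over the 30, where genes share 2 libraries and are not replicates. All genes measured with transcripts of 1000 to 2000 bases had a median difference of -0.14, and those over 6000 bases had 0.29. The fatty acid genes are long, with a median of 5453 bases, and the mevalonate genes short, with a median of 1766. When each gene was centred on the 200 measured genes nearest in length, the fatty acid median went from 0.37 to 0.06. The mevalonate median went from 0.24 to 0.27, and the median of the 30 genes from 0.15 to 0.08. After centring, 21 of the 30 genes lay above 0, against 50.0% of all genes.

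Single genes shifted in both directions under this centring. Fdps, 1 of the shortest transcripts of the list, had the largest centred difference at 0.61, which is past 1.5-fold. Fads2 followed at 0.54, then Sqle at 0.45, Hmgcs1 at 0.44, Stard4 at 0.44, Sc5d at 0.44 and Scd2 at 0.38. These values depend on the listed length. Fads2, Sc5d and Stard4 were listed at 1508, 2249 and 2985 bases, and their longest GENCODE transcripts had 3150, 4787 and 5097. Lss went the other way, at 6339 listed and 4667 bases in GENCODE. Acaca went from 0.57 to 0.24 and Fasn from 0.39 to 0.06, since genes of their length had medians of 0.33. Srebf1, Lss, Acly and Elovl6 turned below 0, and Pmvk, Tm7sf2 and Msmo1 above it. What part of the differences follows length was not tested further.

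**Figure D3:**
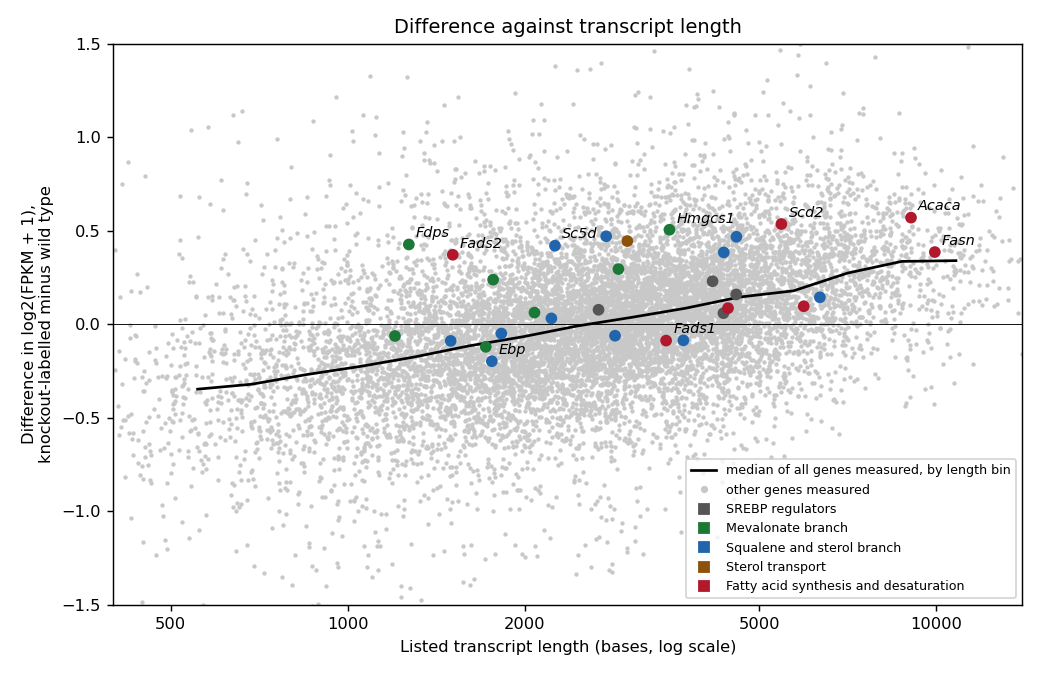
Difference in log2(FPKM + 1) against listed transcript length on a log axis. Grey points are the other measured genes, the black line their median with the list included, by length bin, and coloured points the 30 measured genes by role. Points outside the axes are not drawn. Acaca and Fasn lie near the right end, where the line is near 0.33, while Fdps and Fads2 lie above a line that is below 0.

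Scaling to equal FPKM sums moved the list and all genes by similar amounts. With both libraries scaled to equal FPKM sums, the median of all genes moved to 0.18, and 12.3% of them were at least 1.5-fold higher and 3.31% lower, in place of 6.11% and 6.13%. The median of the 30 genes was then 0.32, or 0.14 relative to all genes, beside 0.15 relative to all genes as reported. Under equal sums 8 of them were at least 1.5-fold higher (Hmgcs1, Fdps, Sqle, Hsd17b7, Sc5d, Stard4, Acaca and Scd2). The plot of group medians shows that the squalene and sterol group stayed nearest to all genes except under length centring.

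**Figure D4:**
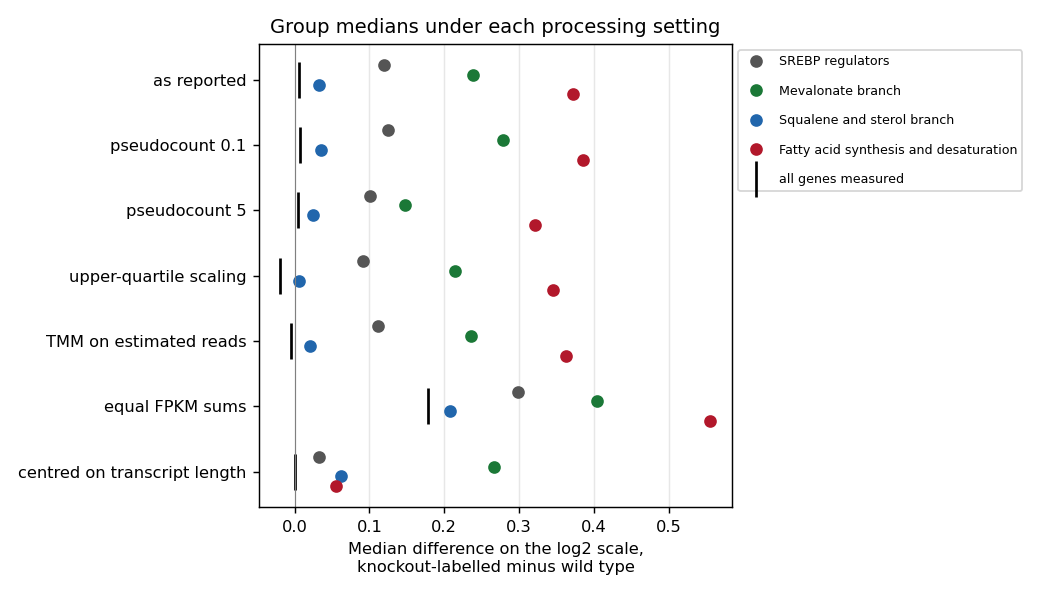
Median difference of 4 groups on the log2 scale under 7 processing settings, with black ticks for all genes measured. The fatty acid group lies farthest right in each setting but the last, where centring on length puts it at 0.06 and the mevalonate group at 0.27.

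Reads of some of these genes could be split with near-identical copies or overlapping genes. In GENCODE transcripts, 7 genes shared over 10% of their 40-base words with another gene. Fdps shared 88.7% with predicted genes and Acaca 54.8% with the predicted gene Gm5182. Acat2 shared 48.0% with its neighbour Acat3, which was listed at 29.1 and 30.2 FPKM, and 14.1% with Tcp1 on the opposite strand. Fdft1 shared 20.1% with Ctsb on the opposite strand, listed at 44.1 and 43.4 FPKM. Idi1, Hmgcs1 and Scap were the others. The predicted genes Gm43738, Gm3571 and Gm5873 (sharing with Fdps) and Gm5182 (Acaca) were listed in neither library. Nor were Gm13502 and Gm48574 (Idi1), Gm48342 (Hmgcs1), Gm6781 (Fdft1) or 5830462I19Rik (Scap). A gene at 0 and a gene left out of counting cannot be told apart here. The sources used here do not state whether counting used strand, so values of these 7 are uncertain as single genes. Without them, 23 genes had a median of 0.10, with 10 intervals above 1 (beside 31.1% of all genes) and 1 below (beside 27.0%). The mevalonate median then rested on Mvk, Pmvk and Mvd and was -0.06. Scd1 shared 6.3% of its words and Scd2 5.4%, mainly with other stearoyl-CoA desaturase genes.

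Other genes of the pathway, in 4 lists, went both ways. In the list for SREBP processing and isoprenoid use, 2 of 11 measured genes (18.2%, beside 6.11% of all genes) passed 1.5-fold upward and 0 downward (beside 6.13%), and the median was 0.17. These were Pggt1b (4.19 and 7.10 FPKM), a subunit of the enzyme that attaches geranylgeranyl groups, and Nus1 (8.66 and 13.6 FPKM), which acts in dolichol synthesis with Dhdds (17.1 and 20.4 FPKM). Pgrmc1, a haem-binding partner of sterol enzymes, was listed at 35.5 and 27.5 FPKM. The proteases that cut SREBPs differed little, with Mbtps1 at 31.1 and 30.8 FPKM and Mbtps2 at 4.50 and 5.21 FPKM. Both were named after their values were seen.

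Sterol efflux, uptake and storage genes had a median of -0.06 over 16 measured genes, with 3 past 1.5-fold upward (18.8%, beside 6.11% of all genes) and 1 downward (6.25%, beside 6.13%). Intervals lay below 1 for 7 of them (43.8%, beside 27.0% of all genes) and above 1 for 5 (31.2%, beside 31.1%). After length centring the median was -0.12, with 5 genes above 0 and 11 below. Soat1, which esterifies cholesterol for storage, stood at 4.55 and 9.89 FPKM, a ratio of 2.17 (1.90 to 2.49). Osbp, an oxysterol-binding transfer protein, was listed at 16.1 and 25.3 FPKM, and the receptor gene Lrp1, named after its value was seen, at 2.20 and 4.88 FPKM. Mylip, an LXR target that degrades lipoprotein receptors, was lower at 11.8 and 7.29 FPKM (0.617, 0.536 to 0.713). Scarb1, a lipoprotein receptor, was listed at 24.3 and 32.2 FPKM. The LXR target genes Abca1 (1.69 and 1.32 FPKM) and Abcg1 (9.86 and 7.33 FPKM), named after their values were seen, encode exporters of cholesterol. Monocyte and macrophage markers summed to 636 and 751 FPKM over 7 genes, and the part of those cells in these values was not tested.

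Fatty acid activation, elongation and glycerolipid genes had a median of 0.18 over 22 measured genes, with 2 past 1.5-fold upward (9.09%, beside 6.11% of all genes) and 0 downward (beside 6.13%). The larger was Dgat2, which makes triglyceride and was named after its value was seen, at 1.59 and 5.75 FPKM, a ratio of 3.62 (2.64 to 4.97) from about 54 and 181 reads. Acsl4, an acyl-CoA synthetase for arachidonate, stood at 6.74 and 10.7 FPKM. Elovl5, the elongase that follows Fads2, was listed at 24.7 and 36.3 FPKM, a ratio of 1.47 (1.35 to 1.59), and the acyl-CoA synthetase gene Acsl1 at 19.2 and 24.8 FPKM. Tecr, the last enzyme of the elongation cycle, was lower at 152 and 123 FPKM.

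Fatty acid oxidation genes had a median of -0.11 over 20 measured genes. Intervals lay below 1 for 10 of them (50.0%, beside 27.0% of all genes) and above 1 for 1 (5.0%, beside 31.1%). One was at least 1.5-fold lower (5.0%, beside 6.13%), the short-chain dehydrogenase gene Acads, at 21.1 and 12.2 FPKM (0.578, 0.503 to 0.663). Acadm (61.6 and 50.2 FPKM), Decr1 (15.1 and 12.4 FPKM) and Cpt1a, the gate to mitochondrial import (49.6 and 41.5 FPKM), followed. After length centring the median of this list was -0.02.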

How the data were processed

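Cells sorted as LT-HSCs gave 2 RNA-seq libraries, 1 per genotype, and each deposited file holds 1 FPKM per gene beside Entrez and RefSeq identifiers and a transcript length, per the file headers. The FPKM values were computed by the authors. The submitters' processing notes name HISAT, HISAT2 and RSEM with the mouse build mm9. Their versions, and whether counting used strand, are not stated in those notes. Symbols came from a RefSeq table of GRCm38, in which 17169 of 17216 identifiers matched. No coordinates of the files' build are given. Genes absent from a file were taken as 0 FPKM, and the smallest listed value was 0.01 FPKM.

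The difference was taken with a pseudocount of 1 FPKM, and a gene counted as measured at a mean of 1 FPKM or more. Reads per gene were estimated from the step of low FPKM values in genes of 300 to 1500 bases with 1 transcript (steps of 65.5 and 70.25 after length offsets of 36 and 39 bases). The steps were fitted to these same values (609 and 587), of which 89.8% in either library came within 0.15 of a whole read. Intervals are exact conditional 95% intervals from rounded reads, hence approximate. The procedure was tested on simulated counts that held counting error only. Such a test cannot cover variation between libraries or how reads were assigned to genes. All 31 genes are named, with up to 4 of each further list (mean of 5 FPKM or more, largest differences first), and others are said to have been named after their values were seen. Members, lists and motifs were chosen with earlier results of these data known. Protein sequences were not used here, and the planned protein identities were replaced by shared words of 40 bases in GENCODE vM21 transcripts. Software was Python 3.11.15 with matplotlib 3.10.9, scipy 1.17.1, pandas 2.3.3 and numpy 2.4.6. Alternatives covered the pseudocount, filter, scaling, length centring and genes with shared sequence.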

Additional observations from a re-analysis of the deposited data

How the results depend on the processing

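The count of 0 genes at least 1.5-fold higher became 2 with a pseudocount of 0.1, beside 8.29% of all genes. It became 2 with TMM factors on estimated reads (beside 6.88%), Acaca and Hsd17b7 in both settings. With equal FPKM sums it was 8 (beside 12.3%), and after length centring 1, Fdps (beside 4.97%). The count stayed 0 with a pseudocount of 5 (beside 2.35%) and with upper-quartile (5.39%) or median-of-ratios scaling (6.11%). It also stayed 0 with other filters on low values, and without the 7 genes that share sequence. The count at least 1.5-fold lower was 0 in each of these settings. From 2.69% (pseudocount of 5) to 8.39% (pseudocount of 0.1) of all genes were that much lower across the pseudocount, scaling and centring settings. Equal FPKM sums moved the regulator median to 0.30 and the fatty acid median to 0.56, where the median of all genes was 0.18. Relative to all genes these were 0.12 and 0.38, beside 0.11 and 0.37 as reported. Length centring moved the fatty acid median to 0.055. Without the genes that share sequence, an alternative chosen after seeing the data, the mevalonate median was -0.062 and the fatty acid median 0.23. The cause was not tested. The median of all measured genes of the list ranged from 0.08 to 0.32. With at least 5 FPKM, the squalene and sterol median was -0.01. Depth leaves Tm7sf2, Scd1 and Hsd17b7 the widest intervals. No paired analysis was possible because each genotype had 1 library.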
